A study of Mus musculus with 13 samples.

Results

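The 35 genes described here carry out glycolysis or belong to the cell's response to low oxygen, and they were taken from the deposited count table by a list of their symbols. They are 35 of 34709 genes, and every one was found and passed the filter on low counts. By role they comprise 3 membrane transporters, 15 glycolytic enzymes, 3 enzymes that steer carbon flow, 2 hypoxia-inducible factor (HIF) subunits, 2 oxygen sensors and 10 further genes known to be switched on in hypoxia. The RNA came from lower incisors that were taken from males at postnatal day 5: there were 5 wild-type control libraries, 3 from the VDRgem mutant and 5 from the VDR-null mutant. Both mutants concern the vitamin D receptor; VDRgem impairs vitamin D signalling by the study's title, and VDR-null by its name has no functional receptor. The alleles, strain, diet and animal of each library were not given in the sources used here. P-values therefore describe the variation among these libraries, which may be technical.

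Glycolysis splits glucose into pyruvate in the cytosol, and cells short of oxygen turn the pyruvate into lactate and export it. HIF alpha subunits are hydroxylated by the oxygen sensors of the Egln family and then destroyed; with little oxygen they escape, pair with Arnt, bind a short core sequence in DNA and switch on glucose transporters, nearly all glycolytic enzymes, the vessel growth factor Vegfa and the Egln sensors themselves. This control acts on HIF protein, which RNA counts do not show. In a tooth, blood vessels run through the pulp, and the enamel organ is fed by vessels that surround it.

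Total counts ran from 20405188 in control 2 to 87783466 in VDRgem 3, and levels are given as CPM, the count scaled to library size by the TMM method. All 8 ameloblast markers and all 6 odontoblast markers were counted in every library, with summed levels of 14731 to 75306 CPM and 57028 to 152095 CPM. Vdr itself stood at 142 to 180.3 CPM in controls, 107 to 205 CPM in VDRgem and 204 to 281 CPM in VDR-null, and gene-level counts cannot tell an intact transcript from a truncated one. Of the marker lists read, the VDRgem libraries differed most from controls in the 15 keratinocyte markers, whose summed level was 17523 CPM in VDRgem 1, 4014 CPM in VDRgem 2 and 333 CPM in VDRgem 3, against 32.4 to 577 CPM in controls and 27.9 to 139 CPM in VDR-null. Of these markers 14 were tested, and 13 were higher in VDRgem than in control; Ivl, involucrin of the outer epidermis, was at 0 in all 3 VDRgem libraries. VDR-null 3 held 769 CPM of 14 skeletal muscle markers, against 6.42 to 76.6 CPM in the other VDR-null libraries, 8.87 to 34.4 CPM in controls and 35.6 to 283 CPM in VDRgem. Immediate early transcripts summed to 505, 420.0 and 183 CPM in VDRgem 1 to 3 and to 106 to 169 CPM in controls, and 10 cell cycle transcripts summed to 283 to 334 CPM in VDRgem, 524 to 708 CPM in controls and 312 to 748 CPM in VDR-null, where VDR-null 2 and 3, at 312 and 440 CPM, lay below every control. All 8 osteoclast and all 9 erythroid markers had fitted values above 0 in VDRgem, with medians of 0.52 and 0.35 against control (1 and 0 called) and 0.73 and 0.87 against VDR-null (3 and 2 called), and 3 of 8 ameloblast markers were called higher in each of these comparisons. Of the 10 cell cycle transcripts, 10 were called lower in VDRgem against control and 9 against VDR-null. Of the 10 immediate early transcripts, 6 and 9 were called higher. Of all genes tested, 8.62% and 18.8% were called in either direction. The part of these cells and transcripts in the results below was not tested.

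In control incisors the glycolytic enzymes led the 35 genes in level per kb of annotated exon. Dividing the CPM by the kilobases of exon, Aldoa, the aldolase of most tissues, came first at 128.75 ± 3.79 CPM per kb (SD, n = 5). Ldha, which makes lactate, followed at 74.70 ± 9.22 CPM per kb and Pkm, pyruvate kinase, at 71.35 ± 4.06 CPM per kb, and these neighbours did not differ beyond their spread. Tpi1, triose phosphate isomerase, stood at 50.96 ± 5.30 CPM per kb, next to the hypoxia targets Ndrg1 at 47.81 ± 4.82 and Ddit4 at 45.47 ± 7.29 CPM per kb, again within their spread.

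Where 2 genes of the list encode the same step, 1 form was higher in the controls, again per kb of exon. Among hexokinases, which trap glucose in the cell, Hk1 stood at 13.75 ± 0.86 CPM per kb and Hk2 at 7.69 ± 2.13 CPM per kb. Pfkl, the liver-type phosphofructokinase, stood at 15.25 ± 1.52 CPM per kb and the platelet-type Pfkp at 1.96 ± 0.18. Pfkm, another phosphofructokinase gene outside the list, had more counts than Pfkl in every control. In order of the controls, Pfkm had 3847, 2545, 7482, 6087 and 6832 counts and Pfkl 3196, 2269, 5560, 5002 and 6781. The exons of Pfkm are also shorter, at 3340 against 6675 bases, so Pfkm was above Pfkl per kb. The glucose transporter Slc2a1 stood at 8.96 ± 1.15 CPM per kb, above Slc2a3 at 1.58 ± 0.06. The sensor Egln1 stood at 16.64 ± 0.32 CPM per kb and its relative Egln3 at 1.02 ± 0.29. Car9, a carbonic anhydrase that rises steeply in hypoxic cells, came last at 0.53 ± 0.22 CPM per kb. The spread between controls was smallest for Egln1, with a coefficient of variation of 1.94%, and largest for Car9 at 41.6%, with Egln3 at 28.3% and Hk2 at 27.7% next.

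**Figure D1:**
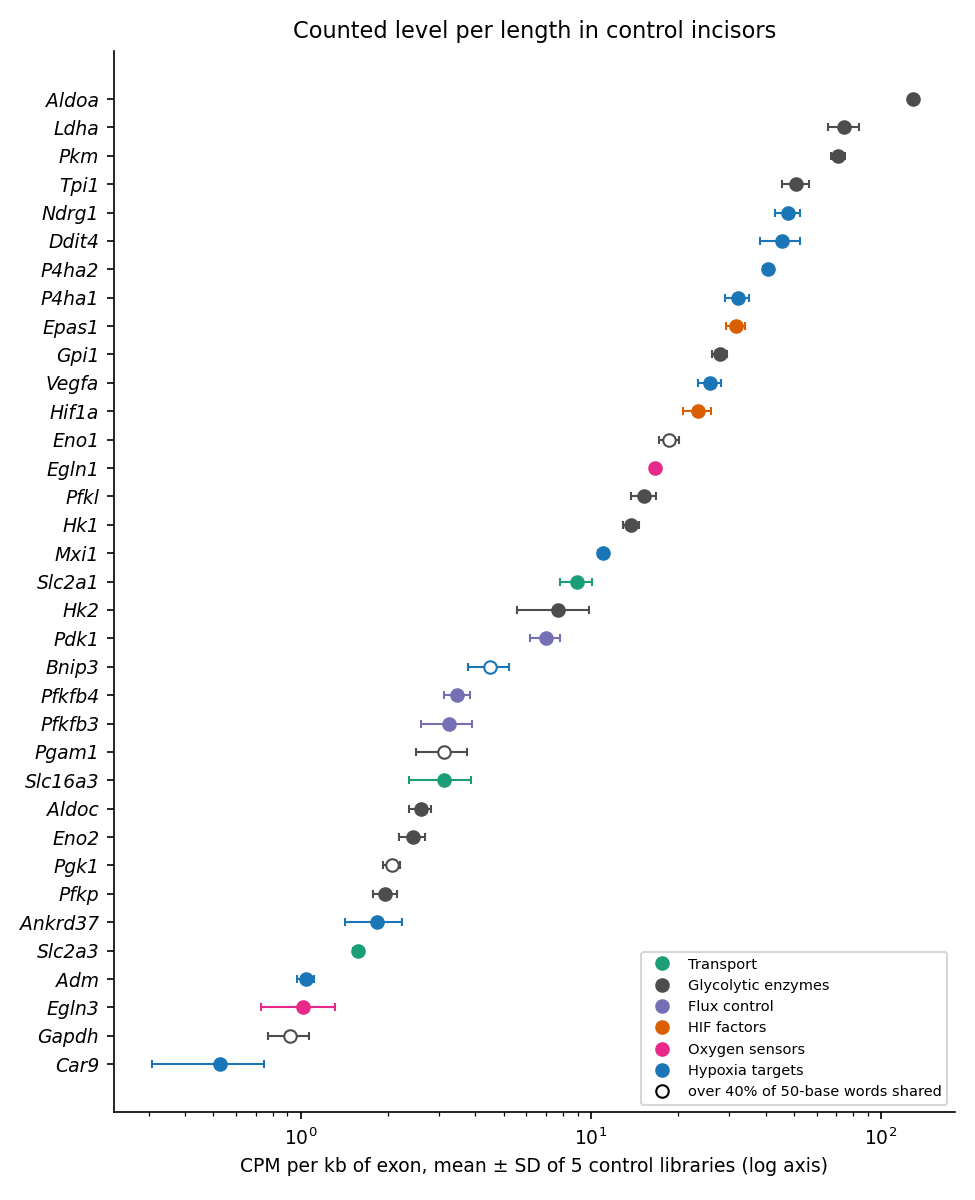
Level of each of the 35 genes in control incisors, in CPM per kb of exon on a log axis; points are means of 5 libraries, bars are SD and colours are roles. Aldoa leads at 128.75 CPM per kb and Car9 is last at 0.53; open points mark genes that share more than 40% of their 50-base words with other genes.

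The levels of 5 genes are uncertain because much of their sequence occurs elsewhere. Of the 50-base words in its transcripts, Pgk1 shares 68.0% with other genes, Bnip3 59.1%, Gapdh 58.4%, Eno1 49.5% and Pgam1 41.5%, in part with processed pseudogenes. How the authors' counting treated reads that match several places was not given in the sources used here. Gapdh, a reference gene of many studies, was counted at only 2.30 to 4.57 CPM over the 13 libraries, while 211 pseudogenes sharing its words summed to 19.5 to 33.3 CPM. Pgk1 and Pgam1, which follow Gapdh in the pathway, were likewise counted at 3.13 to 6.86 and 4.28 to 7.88 CPM. The 5 pseudogenes that share words with Pgk1 summed to at most 0.115 CPM. None of the 5 genes was called in the comparisons below, except Pgk1 under other settings.

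The comparison of VDRgem with control asks how the incisor's RNA differs when the receptor is impaired. The glucose transporter Slc2a1, 1 phosphofructokinase, a HIF subunit and both oxygen sensors of the list were higher in VDRgem, and 1 hexokinase was lower. By edgeR's quasi-likelihood test at an adjusted p under 0.05 (Benjamini-Hochberg, 17837 genes), 5 of the 35 genes rose (Slc2a1, Pfkp, Hif1a, Egln1 and Egln3) and Hk2 fell. These 6 genes are 17.1% of the 35, where 8.62% of all genes tested were called, 4.8% higher and 3.82% lower. Fewer cells of a type and less RNA per cell cannot be told apart in bulk incisors. At an unadjusted p under 0.05 the share was 22.9% of the 35 and 23.9% of all genes. The median log2 fold change was 0.12 for the 35 genes, 24 of them above 0, and 0.00 for all genes. None of the 10 hypoxia targets and none of the 3 flux-control enzymes passed. Groups did not overlap for 7 of the 35 genes (20%; all genes, 19.3%): Pfkp, Aldoa, Eno2, Hif1a, Egln1 and Adm were higher in every VDRgem library than in every control and Hk2 was lower. Without VDRgem 1 the called genes dropped from 6 to 1, Pfkp, and all genes called dropped to 0.364%. Without VDRgem 2 they were Pfkp and Hif1a (all genes, 5.54%), and leaving out any 1 control left 2 or 3 (all genes, 3.63% to 5.74%).

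The comparison of VDR-null with control asks the same of a missing receptor. No gene of the 35 passed in VDR-null, where 1.33% of all genes did. DESeq2 called Hk1 and Ddit4 lower, where it called 4.46% of all genes, and limma-voom called none of the 35 and 1.39% of all genes. At an unadjusted p under 0.05 the share was 17.1% of the 35 and 22.8% of all genes, with Hif1a higher and Hk1, Pfkl, Eno1, Pkm and Ddit4 lower. The median log2 fold change was -0.08 for the 35 genes, 25 of them below 0, and 0.01 for all genes. Among the 15 enzymes 13 had a fitted value below 0. Groups did not overlap for 1 gene, Hk1 (2.86% of the 35; all genes, 7.09%).

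Between the mutants, 9 of the 35 genes were higher in VDRgem than in VDR-null and none was lower. They were Slc2a1, Hk1, Pfkl, Pfkp, Aldoa, Tpi1, Epas1, Egln1 and Egln3, or 25.7% of the 35, where 18.8% of all genes were called, 10.6% higher and 8.18% lower. The share at an unadjusted p under 0.05 was 40% of the 35 and 34.8% of all genes. The median log2 fold change was 0.23 for the 35 genes, 25 of them above 0, and -0.02 for all genes. Groups did not overlap for 5 genes (14.3%; all genes, 18%): Hk1, Pfkp, Hif1a, Egln1 and Egln3. With library totals only, 2 were higher (Slc2a1 and Pfkp) and 3 lower (Hk2, Pgk1 and P4ha2), where 27.6% of all genes were called. Without VDRgem 1 only Pfkp was called (all genes, 2.39%). Without VDRgem 2 (9.19%) or without VDR-null 1 (11.6%) only Slc2a1, Pfkp and Egln1 were called, and without VDR-null 5 (13.8%) these and Hk1. Fitted on the VDRgem and VDR-null libraries alone, the test called Pfkp only, and 4.3% of all genes. Both comparisons with control share the 5 control libraries, and both comparisons with VDRgem share its 3 libraries, so their counts are not independent.

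**Figure D2:**
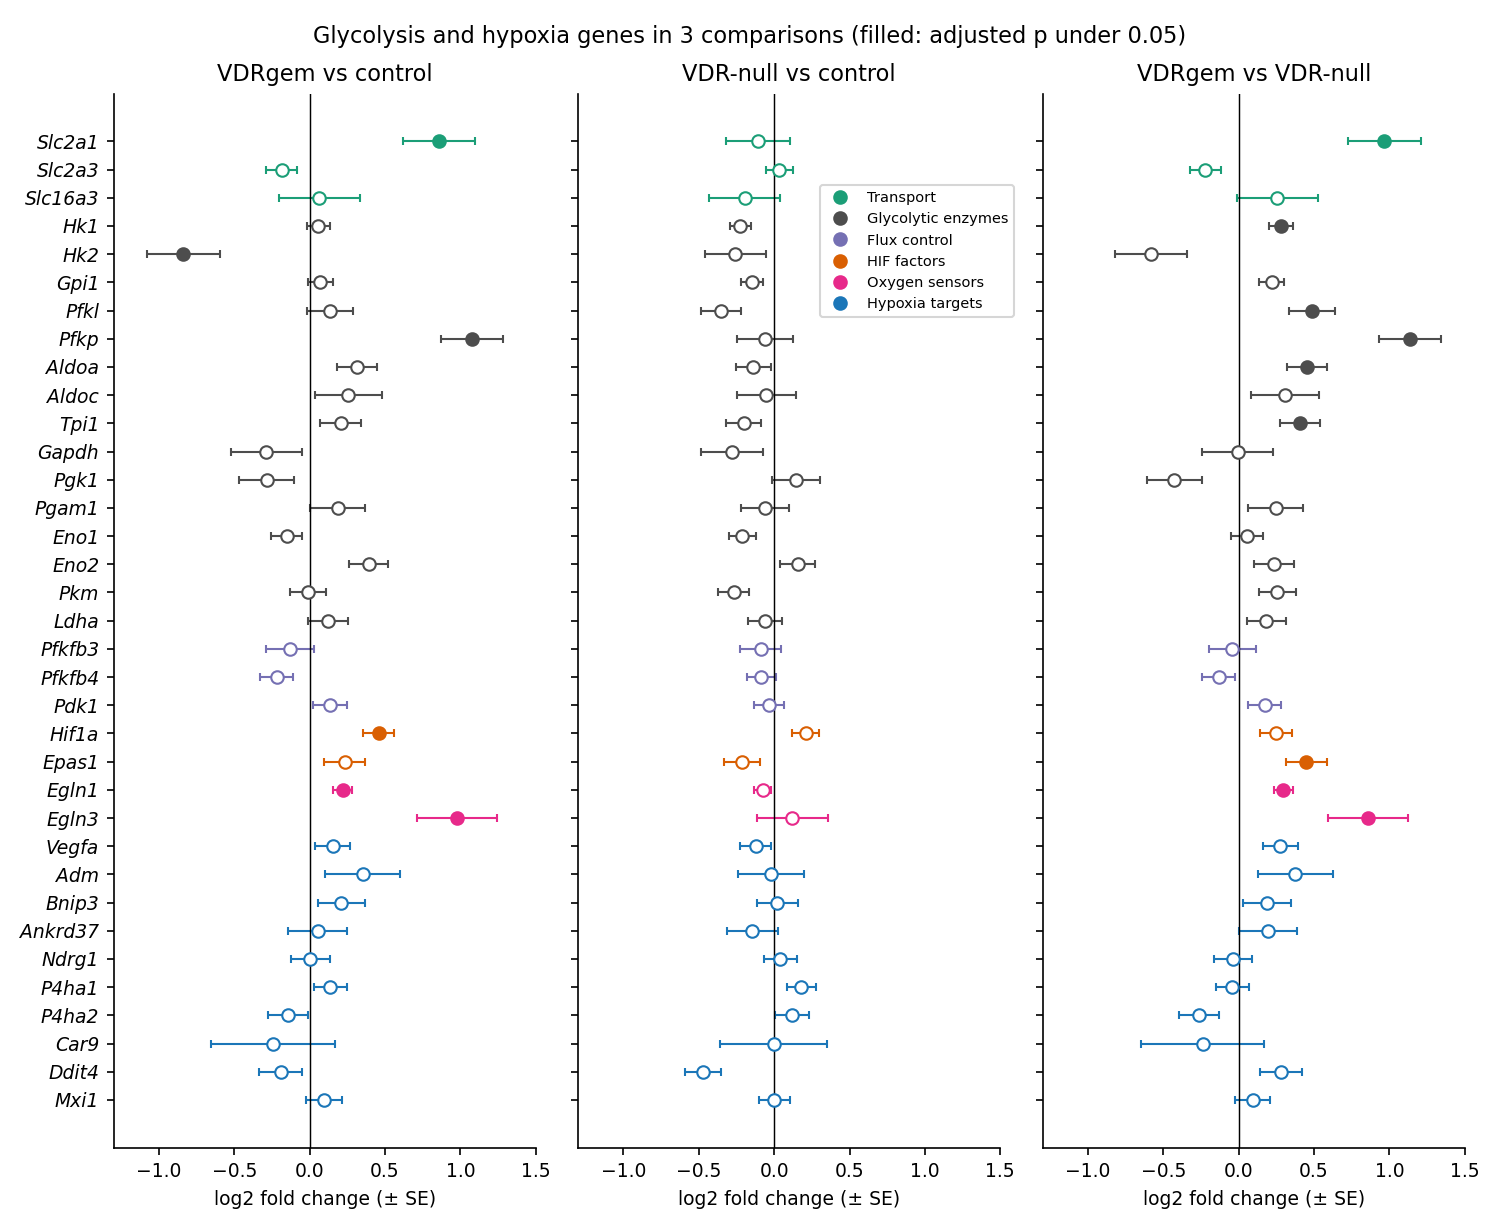
Log2 fold changes of the 35 genes in the 3 comparisons, with bars of 1 SE and colours by role; filled points have an adjusted p under 0.05. The VDRgem panels hold 6 and 9 filled points and the VDR-null panel none, with Pfkp furthest to the right at 1.08 and 1.14.

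The 250 bases before the RefSeq start site (GRCm38.p6) are shown for the 6 genes called in VDRgem against control, because they are the genes of the list called there and HIF is known to act through such a core sequence. Capitals mark ACGTG or GCGTG, the core of the hypoxia response element, read on either strand; on the other strand they appear as CACGT and CACGC, and CACGTG holds ACGTG on both.

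Slc2a1, chr4:119108495-119108744, plus strand: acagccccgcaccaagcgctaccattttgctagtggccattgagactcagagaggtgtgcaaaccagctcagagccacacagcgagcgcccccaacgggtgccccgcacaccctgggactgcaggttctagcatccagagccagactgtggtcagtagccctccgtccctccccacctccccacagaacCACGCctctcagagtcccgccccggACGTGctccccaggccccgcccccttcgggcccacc
Pfkp, chr13:6648772-6649021, minus strand: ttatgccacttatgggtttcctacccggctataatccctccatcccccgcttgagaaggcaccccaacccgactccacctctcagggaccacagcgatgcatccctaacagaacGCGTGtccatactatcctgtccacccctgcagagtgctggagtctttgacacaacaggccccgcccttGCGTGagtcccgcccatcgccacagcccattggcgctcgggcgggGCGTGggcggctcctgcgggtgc
Hk2, chr6:82774455-82774704, minus strand: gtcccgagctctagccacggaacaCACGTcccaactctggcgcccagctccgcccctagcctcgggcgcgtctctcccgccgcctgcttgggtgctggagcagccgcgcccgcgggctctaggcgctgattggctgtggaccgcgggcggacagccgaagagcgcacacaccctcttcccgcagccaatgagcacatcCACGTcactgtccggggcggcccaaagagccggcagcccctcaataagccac
Hif1a, chr12:73907617-73907866, plus strand: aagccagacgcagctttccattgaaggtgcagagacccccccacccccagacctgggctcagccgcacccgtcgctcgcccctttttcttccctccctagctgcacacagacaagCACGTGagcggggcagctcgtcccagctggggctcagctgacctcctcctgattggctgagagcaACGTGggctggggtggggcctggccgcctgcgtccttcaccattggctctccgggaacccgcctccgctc
Egln1, chr8:124949255-124949504, minus strand: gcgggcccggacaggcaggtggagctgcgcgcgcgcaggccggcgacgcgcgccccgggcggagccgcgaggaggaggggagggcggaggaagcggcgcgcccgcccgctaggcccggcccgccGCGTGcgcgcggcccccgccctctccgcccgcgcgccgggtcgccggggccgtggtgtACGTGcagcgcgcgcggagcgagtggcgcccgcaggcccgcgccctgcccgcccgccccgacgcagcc
Egln3, chr12:54203875-54204124, minus strand: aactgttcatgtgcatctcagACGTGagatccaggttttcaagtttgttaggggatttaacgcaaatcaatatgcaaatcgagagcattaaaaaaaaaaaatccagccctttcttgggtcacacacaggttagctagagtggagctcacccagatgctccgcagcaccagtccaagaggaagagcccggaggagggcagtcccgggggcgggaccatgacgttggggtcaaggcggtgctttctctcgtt

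Slc2a1 holds 1 ACGTG and 1 GCGTG here, Pfkp 3 GCGTG, Hk2 2 ACGTG, Hif1a 3 ACGTG, Egln1 1 of each and Egln3 1 ACGTG. Windows of 300 bases, 250 before the start and 50 after, were read, and a gene can have several. In at least 1 of its windows, ACGTG or GCGTG occurred in 29 of the 32 genes with a RefSeq window (90.6%) and in 46.7% of 27025 genes. ACGTG alone occurred in 71.9% and 21.8% of these genes. Counted by window, ACGTG or GCGTG occurred in 80.0% of the 45 windows of the listed genes and in 43.8% of all 32851 windows. The windows of the listed genes were richer in G and C, with a median of 63.3% against 52.7%, and the part of base composition in the motif shares was not tested. DR3, the direct repeat with 3 spacer bases that the vitamin D receptor is known to bind, occurred in 0 of the 32 genes and in 0.292% of all, which says only that its letters are not in these windows. A match is no evidence of binding. Hk2, which fell, holds the core sequence as do the genes that rose. Most of the listed genes hold it, and whether its presence goes with the direction of change was not tested.

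Transport opened with Slc2a1 (ENSMUSG00000028645, chr4:119108711-119137983, plus strand), the glucose transporter of red cells, barriers and many growing tissues. It stood at 27.8, 30.3, 28.5, 32.6 and 37.8 CPM in control 1 to 5, at 79.1, 56.6 and 35.5 CPM in VDRgem 1 to 3, and at 22.2, 23.9, 41.1, 36.0 and 23.1 CPM in VDR-null 1 to 5. VDRgem 1 and 2 lay above every other library, while VDRgem 3 lay within the range of the controls. Its log2 fold change was 0.86 in VDRgem against control (SE 0.24, edgeR adjusted p = 0.0407), -0.11 in VDR-null against control (SE 0.21, adjusted p = 0.803) and 0.97 in VDRgem against VDR-null (SE 0.24, adjusted p = 0.0166). Without VDRgem 1 the values for Slc2a1 were 0.54 against control (adjusted p = 0.285) and 0.65 against VDR-null (adjusted p = 0.127). Against control the call was also lost without VDRgem 2 (adjusted p = 0.0892) and without any 1 control (adjusted p from 0.0585 to 0.0862).

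The other transporters did not pass in any comparison. Slc2a3, a high-affinity glucose transporter of neurons and other cells, ran from 8.92 to 11.1 CPM in VDRgem, from 10.96 to 11.98 CPM in controls and from 10.8 to 13.6 CPM in VDR-null. Slc16a3, which exports lactate, stood at 17.3 ± 0.156 CPM in VDRgem (SD, n = 3), 16.6 ± 4.001 CPM in controls (n = 5) and 14.6 ± 5.54 CPM in VDR-null (n = 5). Its VDR-null libraries spread widely, with 21.8 and 18.8 CPM in VDR-null 3 and 4 but 9.45 and 9.64 CPM in VDR-null 1 and 2.

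Among the enzymes of the upper pathway, Pfkp (ENSMUSG00000021196, chr13:6579768-6648777, minus strand) changed most. Phosphofructokinase performs the committed step of glycolysis, and Pfkp is its platelet-type form. It stood at 22.4, 28.8, 25.6, 26.7 and 27.8 CPM in control 1 to 5, at 87.7, 41.8 and 36.8 CPM in VDRgem 1 to 3, and at 26.6, 24.3, 25.8, 26.7 and 22.7 CPM in VDR-null 1 to 5. All 3 VDRgem libraries lay above all 10 others, and controls and VDR-null libraries covered the same range. The log2 fold change was 1.08 against control (SE 0.21, edgeR adjusted p = 0.0118) and 1.14 against VDR-null (SE 0.21, adjusted p = 0.00515). Pfkp was the 1 gene of the 35 called in both comparisons under each of the 13 fits that left out 1 library; without VDRgem 1 its value against control was 0.57. Its transcripts share 15.4% of their 50-base words with Pitrm1, a mitochondrial protease gene that overlaps it, and Pitrm1 stood at 62.0 to 71.4 CPM in VDRgem and 68.4 to 82.7 CPM in controls.

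The liver-type form, Pfkl (ENSMUSG00000020277, chr10:77986947-78010083, minus strand), behaved otherwise. It stood at 103, 107, 84.1, 105 and 109 CPM in control 1 to 5, at 131, 114 and 90.7 CPM in VDRgem 1 to 3, and at 61.9, 67.8, 87.0, 101 and 79.9 CPM in VDR-null 1 to 5. The VDRgem and control ranges overlapped, and 3 of the 5 VDR-null libraries lay below every control. Pfkl was higher in VDRgem than in VDR-null, with a log2 fold change of 0.49 (SE 0.15, edgeR adjusted p = 0.0401), with 0.13 against control (adjusted p = 0.651) and -0.36 in VDR-null against control (SE 0.13, adjusted p = 0.139). The call between the mutants was lost without VDRgem 1 (0.35, adjusted p = 0.228) and also without VDRgem 2, control 1, 2 or 4, or VDR-null 1, 2 or 5.

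Of the hexokinases, Hk2 (ENSMUSG00000000628, chr6:82725025-82774454, minus strand), the form that muscle and growing cells can induce, was the 1 gene of the 35 that fell in VDRgem. Its levels were 30.9, 43.3, 53.1, 38.6 and 63.5 CPM in control 1 to 5, 22.3, 27.0 and 27.7 CPM in VDRgem 1 to 3, and 48.2, 30.1, 35.8, 50.9 and 27.2 CPM in VDR-null 1 to 5. Every VDRgem library lay below every control, and the VDRgem and VDR-null ranges met at 27.2 to 27.7 CPM. The log2 fold change was -0.84 against control (SE 0.24, edgeR adjusted p = 0.0459) and -0.58 against VDR-null (SE 0.24, adjusted p = 0.1). The fall was called in 5 of the 13 fits that left out 1 library, with values from -0.95 to -0.69, and for Hk2 it was lost without VDRgem 1, 2 or 3 (adjusted p of 0.199, 0.0952 and 0.0612), without control 2, 3, 4 or 5 and without VDR-null 3.

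Hk1 (ENSMUSG00000037012, chr10:62268855-62379908, minus strand), the form bound to mitochondria in most tissues, separated VDR-null from the rest. It stood at 123.4, 117.3, 109.5, 125.8 and 110.7 CPM in control 1 to 5, at 130.6, 122.9 and 112.5 CPM in VDRgem 1 to 3, and at 95.4, 94.1, 107.2, 107.7 and 98.0 CPM in VDR-null 1 to 5. All VDR-null libraries lay below all 8 others, by a narrow margin. Hk1 was higher in VDRgem than in VDR-null, with a log2 fold change of 0.28 (SE 0.08, edgeR adjusted p = 0.0243), while VDR-null against control gave -0.22 (SE 0.07, adjusted p = 0.0800) and VDRgem against control 0.06 (adjusted p = 0.711). The call was lost without VDRgem 1 (0.22, adjusted p = 0.167), without VDRgem 2 (0.29, 0.0668) and without VDR-null 1 (0.26, 0.0511).

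Aldoa and Tpi1, which act on the same pair of triose products, were higher in VDRgem than in VDR-null. Aldoa (ENSMUSG00000030695, chr7:126795234-126800751, minus strand) stood at 371, 389, 361, 371 and 383 CPM in control 1 to 5, at 557, 444 and 396 CPM in VDRgem 1 to 3, and at 277, 339, 437, 345 and 305 CPM in VDR-null 1 to 5. The VDRgem libraries lay above all controls, and VDR-null 3 lay between VDRgem 2 and 3. Its log2 fold change was 0.45 against VDR-null (SE 0.13, edgeR adjusted p = 0.0331) and 0.31 against control (SE 0.13, adjusted p = 0.168). Tpi1 (ENSMUSG00000023456, chr6:124810586-124814296, minus strand) stood at 128, 144, 124, 144 and 161 CPM in control 1 to 5, at 201, 152 and 133 CPM in VDRgem 1 to 3, and at 122, 107, 135, 139 and 107 CPM in VDR-null 1 to 5. Its VDRgem and VDR-null ranges overlapped, and its log2 fold change between the mutants was 0.41 (SE 0.13, adjusted p = 0.0472). Both calls were lost without VDRgem 1, at 0.30 (adjusted p = 0.208) for Aldoa and 0.22 (adjusted p = 0.329) for Tpi1. The call for Aldoa was also lost without VDRgem 2 or VDR-null 1, 4 or 5, and that for Tpi1 without VDRgem 2, control 1, 2 or 4, or VDR-null 1, 2 or 5.

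No other enzyme passed in any comparison. Ldha stood at 230.3, 240.5, 209.8, 271 and 285 CPM in control 1 to 5, at 318, 258 and 231 CPM in VDRgem 1 to 3, and at 239.8, 203, 248, 278 and 216 CPM in VDR-null 1 to 5. All groups overlapped, and its log2 fold changes were 0.12 in VDRgem (edgeR adjusted p = 0.618) and -0.06 in VDR-null (adjusted p = 0.790). Pkm ran from 333 to 380.0 CPM in controls and from 258 to 351 CPM in VDR-null, and its log2 fold change in VDR-null was -0.27 (SE 0.10, adjusted p = 0.152). Eno2, the enolase of neurons, stood at 15.7, 14.0 and 15.3 CPM in VDRgem 1 to 3 and at 10.4 to 12.97 CPM in controls, which gave 0.39 on the log2 scale (SE 0.13, adjusted p = 0.0834). Gpi1, which turns glucose phosphate into fructose phosphate, was at 188 ± 20.1 CPM in VDRgem (SD, n = 3), 179 ± 10.8 CPM in controls (n = 5) and 162 ± 9.89 CPM in VDR-null (n = 5). Aldoc, Gapdh, Pgk1, Pgam1 and Eno1 had adjusted p-values of at least 0.111 in all 3 comparisons.

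The 3 enzymes that steer flow did not pass in any comparison. Pfkfb3 and Pfkfb4 make and break down the sugar phosphate that activates phosphofructokinase, and Pdk1 keeps pyruvate out of mitochondria. Their log2 fold changes lay between -0.22 and 0.14 in VDRgem against control and between -0.09 and -0.03 in VDR-null against control. In VDRgem against control the lowest value was that of Pfkfb4, at 14.5 ± 1.08 CPM in VDRgem (SD, n = 3) and 16.9 ± 1.71 CPM in controls (n = 5).

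Of the HIF subunits, Hif1a (ENSMUSG00000021109, chr12:73901375-73947530, plus strand) rose in VDRgem. It stood at 126.0, 136.9, 153.2, 120.4 and 151.7 CPM in control 1 to 5, at 193.6, 181.2 and 192.3 CPM in VDRgem 1 to 3, and at 167.5, 177.5, 129.6, 164.9 and 155.5 CPM in VDR-null 1 to 5. The VDRgem libraries lay close together and above all 10 others, and 4 of the 5 VDR-null libraries lay above every control. Its log2 fold change was 0.46 in VDRgem against control (SE 0.10, edgeR adjusted p = 0.0203), 0.21 in VDR-null against control (SE 0.09, adjusted p = 0.194) and 0.25 between the mutants (SE 0.10, adjusted p = 0.107). The rise was called in 12 of the 13 fits that left out 1 library; without VDRgem 1 it was 0.43 with an adjusted p of 0.116. VDRgem 1 and 3, which held the most and the fewest keratinocyte transcripts of the group, stood at 193.6 and 192.3 CPM. The part of these transcripts in the result for Hif1a was not tested.

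Epas1 (ENSMUSG00000024140, chr17:86753700-86833410, plus strand), which encodes HIF2 alpha and is known from endothelial cells, differed between the mutants. It stood at 189, 168, 167, 192 and 165 CPM in control 1 to 5, at 173, 212 and 237 CPM in VDRgem 1 to 3, and at 117, 177, 175, 134 and 157 CPM in VDR-null 1 to 5. Here VDRgem 3 was the highest library and VDRgem 1 the lowest of its group, and all groups overlapped. The log2 fold change was 0.45 between the mutants (SE 0.14, edgeR adjusted p = 0.0360), 0.23 in VDRgem against control (adjusted p = 0.323) and -0.21 in VDR-null against control (adjusted p = 0.298). Leaving out any 1 VDRgem library lost the call, with adjusted p of 0.0528, 0.0941 and 0.0947, and so did leaving out VDR-null 1, 4 or 5. The 10 endothelial markers summed to 819, 800.4 and 925 CPM in VDRgem 1 to 3, to 677 to 774 CPM in controls and to 606 to 808 CPM in VDR-null, and none was at 0; 2 of them were higher in VDRgem than in control and 3 higher than in VDR-null. Their part in the result for Epas1 was not tested.

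Both oxygen sensors rose in VDRgem against control and against VDR-null. Egln1 (ENSMUSG00000031987, chr8:124908587-124949324, minus strand), the main HIF prolyl hydroxylase, stood at 60.8, 58.6, 58.5, 60.7 and 60.5 CPM in control 1 to 5, at 72.6, 71.2 and 64.9 CPM in VDRgem 1 to 3, and at 52.6, 58.6, 57.7, 59.8 and 54.9 CPM in VDR-null 1 to 5. All 3 VDRgem libraries lay above all 10 others by a small margin. The log2 fold change was 0.22 against control (SE 0.06, edgeR adjusted p = 0.0481) and 0.29 against VDR-null (SE 0.06, adjusted p = 0.00930). Against control the call held in 2 of the 13 fits that left out 1 library, with values from 0.17 to 0.27, and for Egln1 it was lost without any 1 control (adjusted p from 0.0792 to 0.0957), without VDRgem 1 (0.268) or 2 (0.143) and without VDR-null 2, 3, 4 or 5 (0.0501, 0.0542, 0.0527 and 0.0554). Against VDR-null it was lost without VDRgem 1 (0.25, adjusted p = 0.0772).

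Egln3 (ENSMUSG00000035105, chr12:54178981-54203860, minus strand), a sensor strongly induced by HIF itself, was low in all libraries. It stood at 2.16, 1.89, 2.66, 2.99 and 3.86 CPM in control 1 to 5, at 8.17, 4.58 and 3.49 CPM in VDRgem 1 to 3, and at 3.04, 2.40, 2.83, 3.40 and 3.23 CPM in VDR-null 1 to 5. VDRgem 3 lay below control 5 and just above the highest VDR-null library. These levels rest on 40 to 426 counts per library. The log2 fold change was 0.98 against control (SE 0.27, edgeR adjusted p = 0.0362) and 0.86 against VDR-null (SE 0.27, adjusted p = 0.0391). Without VDRgem 1 these values were 0.54 (adjusted p = 0.300) and 0.42 (adjusted p = 0.325). The call against control was also lost without VDRgem 2 or control 1, 2, 3 or 4, and that against VDR-null without VDRgem 2, control 4 or any 1 VDR-null library.

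**Figure D3:**
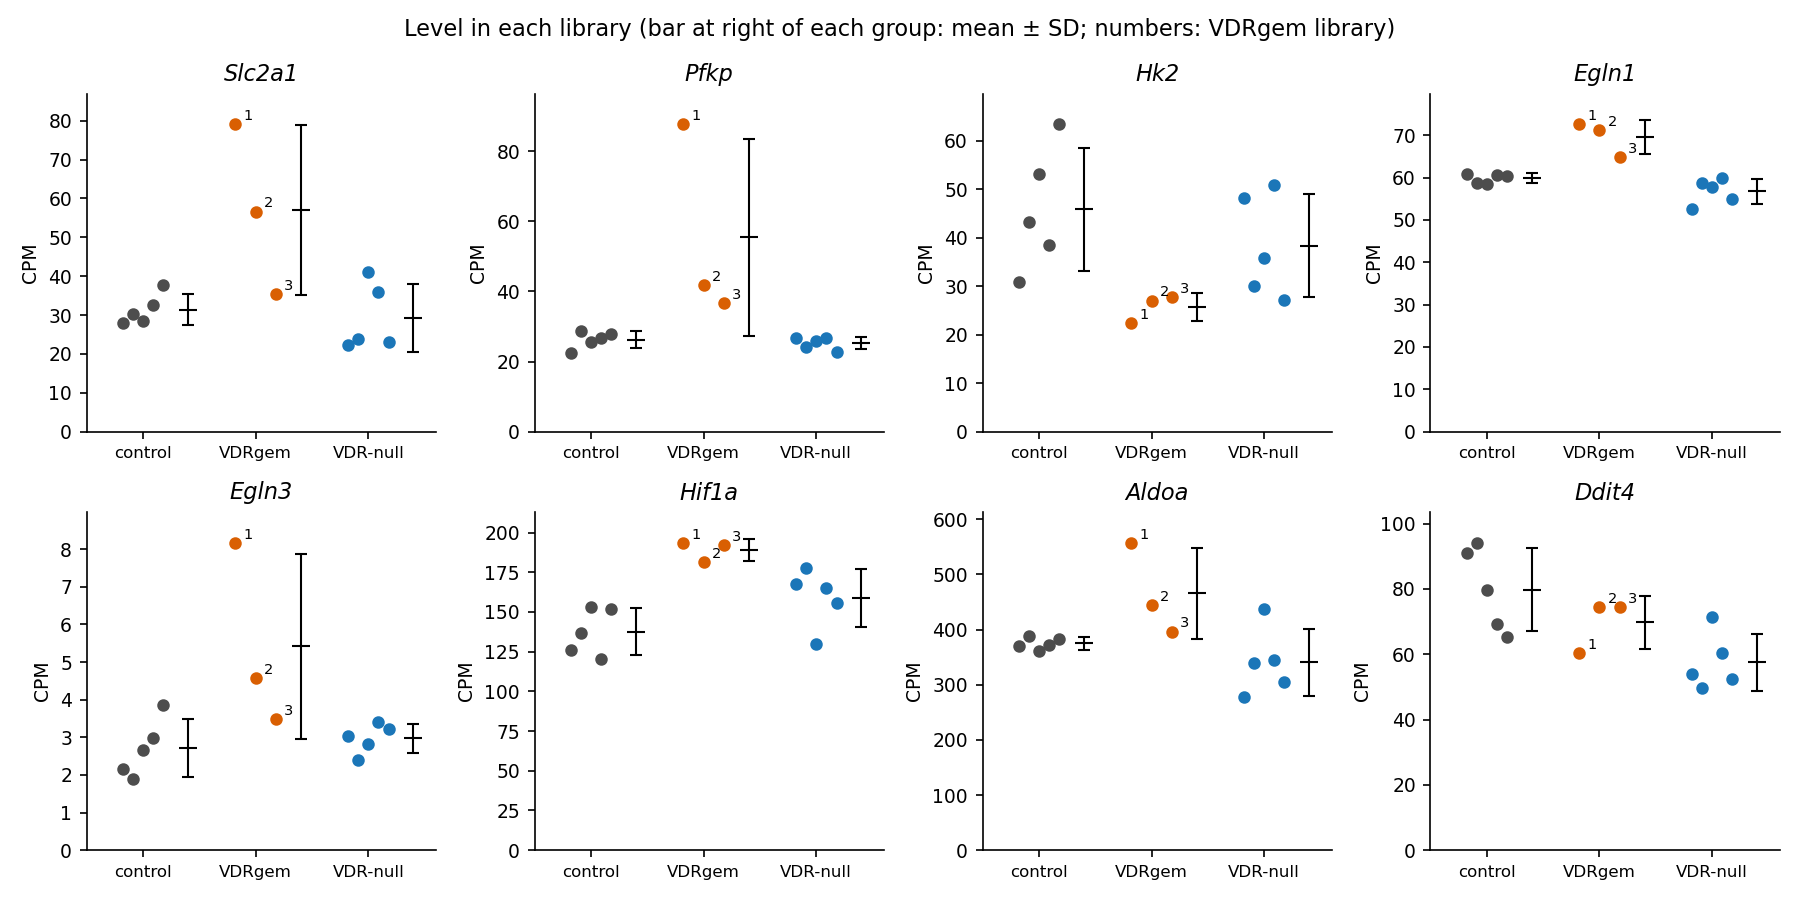
Level in each library, in CPM, of 8 genes in controls, VDRgem and VDR-null; points are libraries, the number beside an orange point is its VDRgem library, and the bar to the right of each group is mean ± SD. In Slc2a1, Pfkp, Egln1, Egln3 and Aldoa the VDRgem libraries descend from 1 to 3, while Hif1a lies at 181 to 194 CPM in all of them.

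None of the 10 hypoxia targets passed in any comparison, where 8.62%, 1.33% and 18.8% of all genes did, so a count of 0 among 10 is no result about them. Vegfa passed between the mutants without VDR-null 3, and P4ha2 with library totals only. The targets' median log2 fold changes were 0.07 in VDRgem against control, -0.00 in VDR-null against control and 0.14 between the mutants. Vegfa, the vessel growth factor, stood at 114, 125, 100.5, 110.5 and 102 CPM in control 1 to 5, at 114, 123 and 132 CPM in VDRgem 1 to 3, and at 79.9, 109.5, 122, 94.1 and 102 CPM in VDR-null 1 to 5. Its groups overlapped in every comparison, with log2 fold changes of 0.15 (edgeR adjusted p = 0.466), -0.12 (0.498) and 0.28 (0.109) in the order above. Adm, adrenomedullin, was higher in every VDRgem library, at 1.89 to 2.39 CPM, than in every control, at 1.52 to 1.77 CPM, with an adjusted p of 0.426. Ndrg1, a stress-response gene, was at 316 ± 42.1 CPM in VDRgem (SD, n = 3) and 315 ± 31.8 CPM in controls (n = 5). P4ha1 and P4ha2, which hydroxylate collagen and were abundant here, had log2 fold changes between -0.14 and 0.18 against control in either mutant, and Mxi1, an antagonist of Myc, between 0.00 and 0.09. Bnip3, Ankrd37 and Car9 had adjusted p-values of at least 0.418 in all 3 comparisons.

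Ddit4 (ENSMUSG00000020108, chr10:59949669-59951834, minus strand), which restrains mTOR under stress, had the smallest p of the 35 genes in VDR-null. It stood at 90.9, 94.1, 79.5, 69.3 and 65.1 CPM in control 1 to 5, at 60.4, 74.4 and 74.4 CPM in VDRgem 1 to 3, and at 53.9, 49.6, 71.4, 60.3 and 52.3 CPM in VDR-null 1 to 5. Of the VDR-null libraries 4 lay below every control, and VDR-null 3 lay among them. The log2 fold change was -0.47 (SE 0.12, edgeR adjusted p = 0.0603) and passed without VDR-null 3 (-0.56, adjusted p = 0.0389), without VDRgem 1 (-0.48, 0.0442) and without VDRgem 3 (-0.49, 0.0495), the last 2 of which enter only through the shared spread, filter and scaling. In VDRgem against control it was -0.19 (adjusted p = 0.446).

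In 18 of the 35 genes (51.4%) the level descended from VDRgem 1 through 2 to 3, as in 28.1% of all genes tested, among them 4 of the 6 genes called against control (Slc2a1, Pfkp, Egln1 and Egln3) and 8 of the 9 called against VDR-null. VDRgem 1 was the highest of the group in 21 genes and the lowest in 10, and VDRgem 3 the lowest in 19 and the highest in 12. The mean log2 CPM of the keratinocyte markers fell in the same order, from 7.77 to 5.97 and 2.83, while controls ran from -0.48 to 2.97 and VDR-null from -0.75 to 1.26. Summed skeletal muscle markers, at 283, 57.4 and 35.6 CPM, and immediate early transcripts fell in that order too. With the keratinocyte level as a covariate no gene of the 35 was called in any comparison, and against control the log2 fold change was 0.02 for Slc2a1, 0.22 for Egln3, 0.07 for Egln1 and 0.45 for Pfkp, while it was 0.59 for Hif1a and -0.55 for Hk2. With that covariate 0 of all genes tested were called in VDRgem against control, 0.23% in VDR-null against control and 0.0729% in VDRgem against VDR-null. The covariate ran from 2.83 to 7.77 in VDRgem and from -0.75 to 2.97 in the other libraries, so the fit can hardly separate it from the VDRgem group. The fit without VDRgem 1 and 2 leaves VDRgem 3 alone and takes its variation to be that of the other groups. Its values against control were 0.16 for Slc2a1, 0.33 for Egln3, 0.11 for Egln1, 0.47 for Pfkp, 0.47 for Hif1a and -0.74 for Hk2. The part of the keratinocyte, muscle and immediate early transcripts in these results was not tested.

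**Figure D4:**
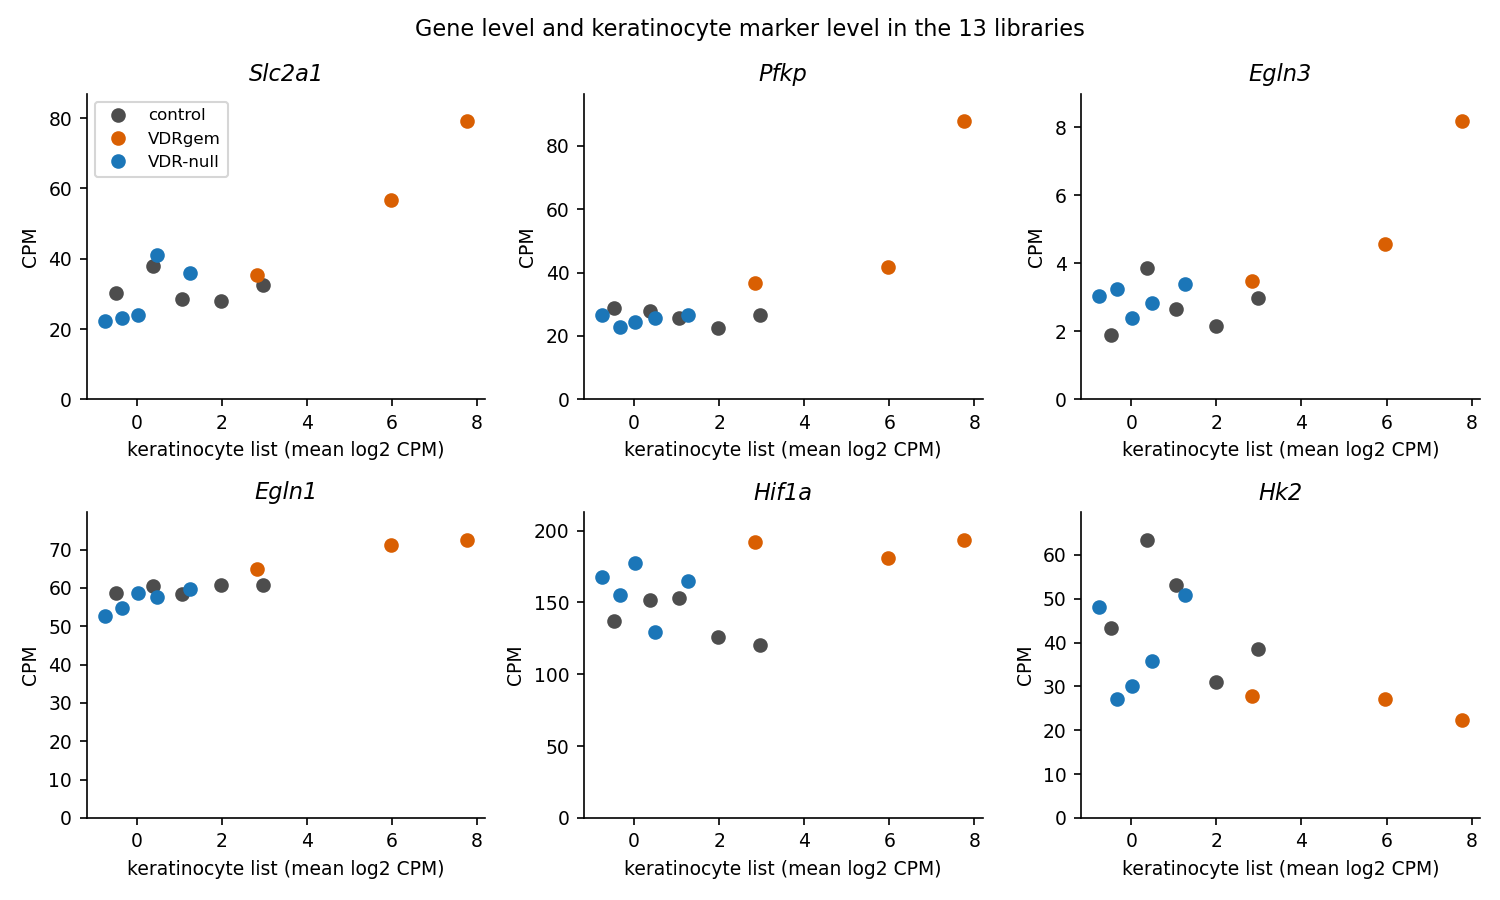
Level of 6 genes in CPM against the mean log2 CPM of the keratinocyte markers; each point is 1 of 13 libraries, coloured by group. Slc2a1, Pfkp and Egln3 are highest in the VDRgem library with the most keratinocyte transcripts, at 79.1, 87.7 and 8.17 CPM. Hif1a is at 192 CPM in VDRgem 3, and the part of these transcripts was not tested.

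The balance between forms of the same enzyme was compared within each library, where scaling cancels. Of 8 ratios in 3 comparisons, none passed after adjustment over the 24 tests; with 5 libraries against 3, a two-sided exact permutation test cannot go below p = 0.0357, and with 5 against 5 not below p = 0.00794. The log2 ratio of Hk2 to Hk1 was -1.997, -1.44, -1.04, -1.70 and -0.80 in control 1 to 5 and -2.55, -2.18 and -2.02 in VDRgem 1 to 3. Every VDRgem library lay below every control, by a mean difference of -0.85 (exact permutation p = 0.0357, adjusted p = 0.143), and below every VDR-null library by -0.82 (the same p-values).

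The ratio of Pfkp to Pfkl, which leaves out Pfkm, moved the other way. It ran from -2.20 to -1.72 in controls and was -0.57, -1.44 and -1.303 in VDRgem 1 to 3. The difference was 0.85 (exact permutation p = 0.0357, adjusted p = 0.143). In VDR-null this ratio ran from -1.93 to -1.22, with a difference of 0.31 from control (exact permutation p = 0.0714, adjusted p = 0.171). The ratio of Eno2 to Eno1 was higher in VDRgem than in control by 0.55, and that of P4ha2 to P4ha1 differed by -0.28, also with groups that did not overlap and the same p-values as Hk2 to Hk1. Eno2 to Eno1 differed by 0.36 in VDR-null against control (exact permutation p = 0.0556, adjusted p = 0.171) and by 0.19 between the mutants (exact permutation p = 0.357), and the shared sequence of Eno1 limits this ratio. Slc2a3 to Slc2a1 differed by -0.99 (exact permutation p = 0.0714, adjusted p = 0.171), Egln3 to Egln1 by 0.73 (the same p-values), Aldoc to Aldoa by -0.13 (p = 0.643, adjusted p = 0.671) and Epas1 to Hif1a by -0.24 (p = 0.321, adjusted p = 0.482). In VDR-null Epas1 to Hif1a differed from control by -0.44 (exact permutation p = 0.0794, adjusted p = 0.173).

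**Figure D5:**
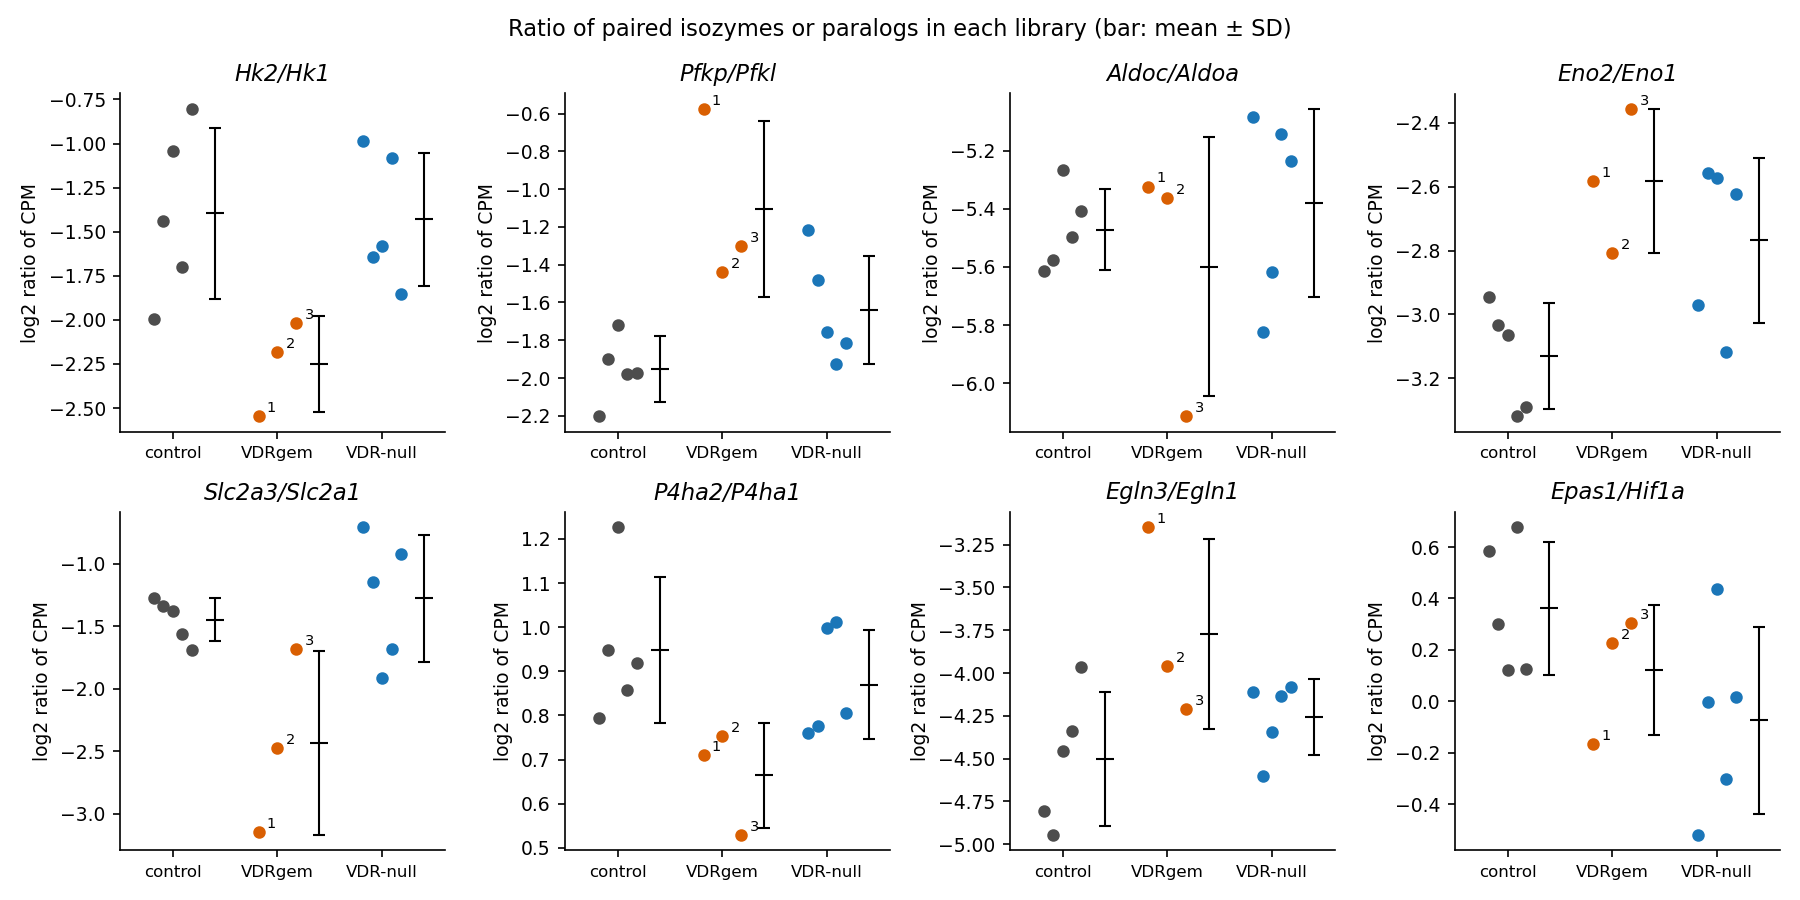
Log2 ratio of CPM of 2 related genes in each library for 8 pairs; points are libraries, the numbers mark VDRgem libraries and the bars are mean ± SD. In the VDRgem libraries Hk2 to Hk1 lies at -2.55 to -2.02, below the controls at -1.997 to -0.80, and Pfkp to Pfkl at -1.44 to -0.57, above the controls at -2.20 to -1.72.

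Other genes of both pathways, from 2 further lists, gave the setting. Of 22 other glycolysis genes 19 were tested. None was called against control in VDRgem or VDR-null, where 8.62% and 1.33% of all genes were, so 0 of 19 is no result about them. At an unadjusted p under 0.05, 1 was higher and 1 lower in VDRgem (10.5%, against 23.9% of all genes). In VDR-null 1 was higher (5.26%, against 22.8% of all genes). Their median log2 fold changes were 0.03 in VDRgem and 0.10 in VDR-null. In VDRgem against VDR-null 1 of the 19 was called (5.26%, against 18.8% of all genes). This was Slc16a1, which carries lactate and pyruvate, with -0.35 (SE 0.11, edgeR adjusted p = 0.0379). It stood at 32.0, 39.4 and 46.6 CPM in VDRgem 1 to 3 and at 45.2 to 56.9 CPM in VDR-null, so that VDRgem 3 overlapped with VDR-null.

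Of 29 other hypoxia genes 28 were tested, and 2 were higher in VDRgem than in control (7.14%; higher among all genes, 4.8%) and none lower. Fam162a, a mitochondrial protein induced in hypoxia, stood at 174, 75.6 and 41.8 CPM in VDRgem 1 to 3 and at 37.6 to 45.4 CPM in controls, with a log2 fold change of 1.24 (SE 0.30, edgeR adjusted p = 0.0259). Siah2, a ubiquitin ligase that acts on the Egln sensors, stood at 24.4, 16.3 and 11.5 CPM in VDRgem 1 to 3 and at 10.5 to 12.6 CPM in controls, with 0.65 (SE 0.18, adjusted p = 0.0364). In both genes VDRgem 3 overlapped with the controls.

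In VDR-null no other hypoxia gene was called against control, where 1.33% of all genes were. At an unadjusted p under 0.05, 3 were higher and 3 lower (21.4%, against 22.8% of all genes). The smallest p belonged to Mif, a cytokine, at 7.07 to 10.9 CPM in VDR-null and 12.2 to 15.1 CPM in controls, a log2 fold change of -0.76 (SE 0.18, edgeR adjusted p = 0.0505); it shares 76.4% of its words with other genes. Kdm4b, a histone demethylase, gave -0.36 (adjusted p = 0.0661) and Ero1l, an oxidase of the endoplasmic reticulum, 0.27 (adjusted p = 0.0717). Between the mutants 5 of the 28 were higher in VDRgem and none lower (17.9%; higher among all genes, 10.6%). They were Mif, Higd1a, Tfrc, Fam162a and Egln2, with log2 fold changes from 0.44 for Higd1a, a mitochondrial protein, to 1.30 for Fam162a. Egln2, the third HIF prolyl hydroxylase, was at 52.7 ± 9.77 CPM in VDRgem (SD, n = 3), 35.1 ± 7.63 CPM in VDR-null (n = 5) and 48.0 ± 4.51 CPM in controls (n = 5), with 0.59 between the mutants (SE 0.16, adjusted p = 0.0234). Tfrc, the transferrin receptor, was highest in VDRgem 3 at 325 CPM, against 212 and 222 CPM in VDRgem 1 and 2 and 97.3 to 196 CPM in VDR-null, with 0.98 (SE 0.23, adjusted p = 0.0124).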

How the data were processed

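The authors deposited raw read counts per Ensembl gene. Per the submitters' processing notes, the tools were HTSeq 0.6.1p1, STAR 2.5.3a and bcl2fastq 2.20.0.422, and the build was mm10. Per the labels' protocols, 300 ng of RNA went into each stranded poly-A library, which was amplified over 12 PCR cycles. Annotation release, counting mode and strand setting were not given in the sources used here, so reads of overlapping and antisense genes may be mixed. Every column of the table was matched to a library. Symbols, exon lengths and coordinates came from GENCODE M21 (GRCm38), which named 34618 of 34709 genes; of the 2 identifiers named Aldoa the one with more exon bases was used. Promoter sequences came from RefSeq (GRCm38.p6), where 32 of the 35 genes had a window.

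Counts were scaled by TMM and filtered with filterByExpr (minimum count 10), which kept 17837 genes. All 13 libraries entered 1 edgeR 4.0.16 fit (R 4.3.3) with 1 mean for each group and without covariates, and the quasi-likelihood test was adjusted by Benjamini-Hochberg over all genes tested. The smallest library, control 2, held 20405188 counts and gave 40 counts for Egln3. Ratios were log2 CPM with a prior count of 0.5, tested by exact permutation (scipy 1.17.1). Alternatives used DESeq2 1.42.0, limma 3.58.1 (voom) and sva 3.50.0, other scalings, filters and thresholds, the selection of the study (unadjusted p under 0.05 and a log2 fold change beyond 0.3) and left-out libraries. The functions were tested on simulated data.

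The genes, the lists and the tests were chosen with earlier results of these data known. Values per library are given for genes called in any comparison, for the smallest p in each comparison and for Hif1a, Slc2a1, Ldha and Vegfa; other pathway genes are named if called or among the 3 smallest p of a comparison. 1 gene of the hypoxia list is not reported here and enters no count of that list. Eno2, Pkm and others were named after their values were seen. Summed markers of erythroid cells, osteoclasts and neurons ran over all libraries from 74.3 to 387 CPM, 390 to 1424 CPM and 55.9 to 101 CPM.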

Additional observations from a re-analysis of the deposited data

Results flagged for a closer look

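Of 70 sets of libraries (35 genes in controls and in VDR-null), 3 held a library set apart from the rest of its group by Dixon's test at the 95% level, where chance gives about 1 in 20. Pfkl was 84.1 CPM in control 3 and 103 to 109 CPM in the other controls. Gapdh, whose counting is uncertain, was 4.33 CPM in VDR-null 5 and 2.67 to 2.97 CPM in the other VDR-null libraries. Pdk1 was 43.3 CPM in VDR-null 3, the library with the most skeletal muscle transcripts, and 53.4 to 57.4 CPM in the others. The 3 VDRgem libraries are too few for this test.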

How the results depend on the processing

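Percentages in brackets here are the shares of all genes called in the same setting. In VDRgem against control 6 genes were called (8.62%). With limma-voom 2 were called (5.5%), with robust dispersion 3 (8.18%) and with library totals only 3 (12.1%), Pfkp higher and Hk2 and Pfkfb4 lower. None was called with 1 surrogate variable (0.0449%), at an adjusted p under 0.01 (0.774%), with the keratinocyte covariate (0%) or with the skeletal muscle covariate (0.0841%). So few of all genes were called in these settings that 0 is no result about the 35. Leaving out 1 library gave 1 to 6 (0.364% to 11.1%). In VDR-null against control 0 were called (1.33%). With DESeq2 2 were called (4.46%), with only the 2 groups compared 1 (4.16%) and with 1 surrogate variable 2 (6.33%). At an adjusted p under 0.1 2 were called (9.01%), by the selection of the study 2 (13.2%) and with the skeletal muscle covariate 3 (9.88%), Hk1, Pfkl and Ddit4. All of these were lower, and as shares of the 35 they lay near or below those of all genes. Leaving out 1 library gave 0 to 1 (0.0333% to 3.75%). In VDRgem against VDR-null 9 were called (18.8%). With library totals only 5 were called (27.6%), Slc2a1 and Pfkp higher and Hk2, Pgk1 and P4ha2 lower. With only the 2 groups compared 1 was called (4.3%), at an adjusted p under 0.01 2 (4.2%) and with the skeletal muscle covariate 5 (12.2%). None was called with 1 surrogate variable (0.297%) or with the keratinocyte covariate (0.0729%). Leaving out 1 library gave 1 to 11 (2.39% to 25.2%). Library totals moved the median log2 fold change of all genes to -0.17 in VDRgem against control, and the 35 genes stood at -0.05. With the keratinocyte covariate, VDRgem against VDR-null turned to -0.015 for Slc2a1, -0.062 for Egln3 and -0.0096 for Pfkl. The 15 calls of single genes were kept in 217 of 375 alternatives, 122 of 195 that left out 1 library and 95 of 180 others. Fitted values of the genes followed, called or not, changed sign in 37 of 1125 alternatives; with library totals, Ldha, Vegfa, Hk1 and Pfkl, none of them called, fell below 0 in VDRgem against control. No ratio was called in any setting, but with so few libraries the adjusted p could hardly pass, so this says nothing of stability. Causes of these differences were not tested, beyond the fewer samples of left-out libraries. No paired analysis was possible because the labels give no replicate numbers shared between groups. Depth limits Egln3, Adm, Car9 and Ankrd37 most.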
